A study of Mus musculus with 4 samples.

Results

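The GDNF family consists of the 4 ligand genes *Gdnf*, *Nrtn* (neurturin), *Artn* (artemin) and *Pspn* (persephin), the 4 co-receptor genes *Gfra1* to *Gfra4* and the signalling receptor gene *Ret*. These 9 genes were chosen by their symbols, and all 9 were found among the 52636 genes of the deposited tables. Their mRNA was measured by RNA-seq in FACS-sorted tdTomato+ cells of mouse embryonic kidneys, in 4 libraries of 5000 cells each, to ask which genes depend on Eya1 in cells of the *Eya1* lineage. Control embryos (libraries 1 and 2) were *Eya1* CreER;tdTomato, and in the *Eya1*cKO embryos (libraries 1 and 2) *Eya1* fl/fl was added to these alleles. Both genotypes carried the CreER allele, which is expressed from *Eya1* and marks its lineage, and both were harvested at about E12.5 to E12.75, 48 h after tamoxifen was begun. The mice were on a mixed C57BL/6J and 129/Sv background. According to the labels, 6 kidneys of each genotype were taken, from 4 mothers; the study's methods give other numbers of kidneys and mothers. Cells of a genotype were pooled, and its 2 libraries were sorted from the pool at the same time, so the *P* values measure the spread between portions of pooled cells, which may be technical.

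GDNF ligands are secreted relatives of the TGF-beta family. Each binds preferentially to its own GFRα co-receptor, which is held at the cell surface by a lipid anchor, and the pair then activates the receptor tyrosine kinase Ret. In the developing kidney, GDNF is made by the metanephric mesenchyme and nephron progenitors and acts through GFRα1 and Ret on the ureteric bud, the epithelium that invades the mesenchyme and branches. Of the other pairs, neurturin with GFRα2 and artemin with GFRα3 are best known from peripheral neurons. The co-receptor of persephin is GFRα4.

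The libraries held 17457452 to 37999342 reads assigned to genes, with more in both Control libraries than in either *Eya1*cKO library. Reads that mapped to no annotated gene made up 12.9% to 13.9% of all reads recorded in the Control libraries and 20.9% to 22.7% in the *Eya1*cKO libraries, and reads that were not aligned 6.32% to 6.69% and 12.7% to 12.9%. Levels are given in CPM, read counts scaled to library totals that edgeR's TMM method had adjusted, in which 3 counts correspond to 0.080 to 0.0857 CPM in the Control libraries and 0.133 to 0.171 CPM in the *Eya1*cKO libraries. These limits, and the counting intervals drawn with the levels, cover counting error only. *Eya1* itself fell by 3.60 on the log2 scale (standard error 0.18, adjusted *P* = 0.000195 in edgeR's quasi-likelihood test over all genes tested).

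The sequences shown are those before the start sites of the 2 most abundant members, which were also the ligand and the co-receptor that were lower in *Eya1*cKO. RefSeq promoter sequences were found for 6 of the 9 genes. The 250 bases before the upstream RefSeq start of *Gdnf*, on the plus strand at chr15:7809798-7810047 of GRCm38.p6, hold a TATA box, TATAAA, in capitals, 31 bases before the start site:
Gdnf: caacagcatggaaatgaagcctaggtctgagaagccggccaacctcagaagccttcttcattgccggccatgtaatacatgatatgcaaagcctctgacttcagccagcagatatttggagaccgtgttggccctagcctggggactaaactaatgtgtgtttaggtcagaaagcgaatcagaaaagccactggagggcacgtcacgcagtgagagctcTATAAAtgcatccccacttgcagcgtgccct
The letters TATAAA were found, on either strand, in 12.4% of the 32851 RefSeq windows of the same length. For *Gfra1*, on the minus strand, the 30 bases at chr19:58455446-58455475 of GRCm38.p6 hold TCAGGTT, the core of a binding motif of homeobox factors such as Six2, in capitals, 66 bases before its RefSeq start site:
Gfra1: gtcaattgggtTCAGGTTcgtggcatttag
This stretch lies across the end of a non-coding first exon of a longer GENCODE transcript of *Gfra1*. The capitals themselves span that splice junction, with TCAG in the exon and GTT in the intron. The *Gdnf* window holds no GENCODE exon. TCAGGTT, on either strand, was found in 3.49% of the windows. It was not found in the windows of *Gdnf*, *Nrtn*, *Artn*, *Pspn* and *Gfra4*, and neither were TTCAGCACC and GGACAGCGC, the half-sites of the neuronal gene repressor REST, or the ETS factor core CCGGAAGT in any window of the 6 genes. On either strand, these were found in 0.301%, 0.304% and 2.88% of the windows. A match of letters is a description of the sequence and not a binding site.

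*Gdnf* (ENSMUSG00000022144), on chromosome 15 from 7810846 to 7837575 of GRCm38, was the most abundant member in the Control cells and fell most in *Eya1*cKO. Control 1 held 4250 reads of it and Control 2 held 5159, whereas *Eya1*cKO 1 and 2 held 347 and 419. At the Control mean, the depth of *Eya1*cKO 1 and 2 would have given 2932 and 2276 reads. Both *Eya1*cKO libraries were far below both Control libraries, and within *Eya1*cKO the second library was the higher. The level went from 129.5 ± 11.3 to 19.6 ± 6.02 CPM (SD, n = 2 libraries each), or to 15.1% of the Control level. The log2 fold change was -2.76 (standard error 0.21, 95% interval -3.25 to -2.27, adjusted *P* = 0.00101 in edgeR). It lay between -3.10 and -2.45 with each library left out in turn. In the fits without Control 1 or without Control 2 the adjusted *P* in edgeR was 0.0629 and 0.0948. In those fits a single Control library is taken to vary as the *Eya1*cKO libraries did.

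**Figure D1:**
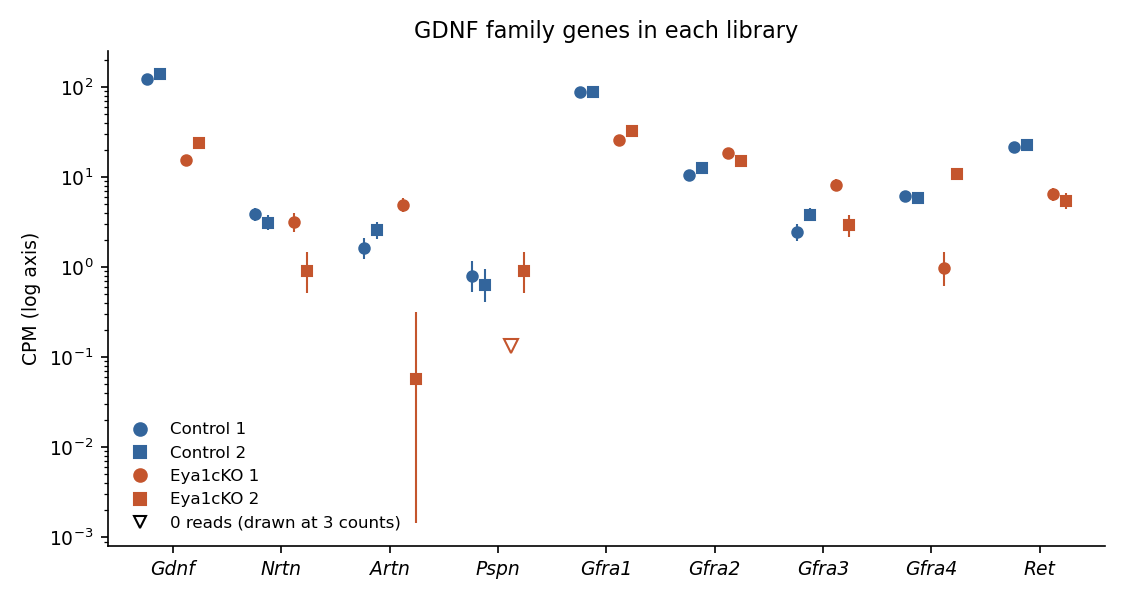
Level of each member in each library, in CPM on a log axis, with circles for library 1 and squares for library 2 of a genotype and bars for the 95% interval of counting error. *Gdnf*, *Gfra1* and *Ret* are lower in both *Eya1*cKO libraries than in both Control libraries, whereas the *Eya1*cKO libraries are far apart for *Artn*, *Pspn* and *Gfra4*; the open triangle marks *Pspn* in *Eya1*cKO 1, with 0 reads, drawn at 3 counts.

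The other 3 ligand genes were expressed at low levels, and none passed the threshold. *Nrtn* (ENSMUSG00000039481), on chromosome 17 from 56751325 to 56757530, was read 134 times in Control 1 and 117 times in Control 2, against 71 and 16 times in the *Eya1*cKO libraries. *Eya1*cKO 1, with 3.14 CPM, lay between the Control libraries (3.83 and 3.12 CPM), and *Eya1*cKO 2 was lower, with 0.910 CPM. *Nrtn* had a log2 fold change of -0.68 (95% interval -2.41 to 1.05, adjusted *P* = 0.587 in edgeR), which was -1.93 without *Eya1*cKO 1 (adjusted *P* = 0.0778 in edgeR) and -0.16 without *Eya1*cKO 2 (adjusted *P* = 0.819 in edgeR).

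*Artn* (ENSMUSG00000028539), on chromosome 4 from 117926162 to 117929763, gave 57 and 96 reads in the Control libraries, while *Eya1*cKO 1 had 111 and *Eya1*cKO 2 had 1. One *Eya1*cKO library was thus above both Control libraries and the other below both, where the Control mean would have given 47.4 and 36.8 reads at their depths. The log2 fold change was 0.40 with an interval from -1.93 to 2.73 (adjusted *P* = 0.831 in edgeR), and it was -5.12 without *Eya1*cKO 1 (adjusted *P* = 0.0396 in edgeR) but 1.20 without *Eya1*cKO 2. *Pspn* (ENSMUSG00000002664), on chromosome 17 from 56999457 to 57000018, gave 28 and 24 reads in the Control libraries, whereas *Eya1*cKO 1 had 0 and *Eya1*cKO 2 had 16. The Control mean would have given 16.3 and 12.7 reads at the depths of the *Eya1*cKO libraries, so that 1 library was empty and the other was above both Control libraries after scaling. Its interval ran from -3.92 to 2.24 on the log2 scale, and a change of *Artn* or *Pspn* was not detectable at this depth and spread.

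*Gfra1* (ENSMUSG00000025089), on chromosome 19 from 58235604 to 58455909, encodes the co-receptor of GDNF and fell to 33.2% of its Control level. Control 1 held 3087 reads of it and Control 2 held 3261, whereas the *Eya1*cKO libraries held 578 and 572. The Control libraries were almost equal at 88.2 and 86.9 CPM, and the *Eya1*cKO libraries lay well below them at 25.5 and 32.5 CPM. The log2 fold change was -1.61 (standard error 0.17, 95% interval -2.02 to -1.20, adjusted *P* = 0.0034 in edgeR). It lay between -1.79 and -1.44 with each library left out, and the adjusted *P* in edgeR was 0.207 without Control 1 and 0.222 without Control 2. Exons of an antisense gene, *Gm16277*, cover 7.6% of the exonic length of *Gfra1*, and the strand setting of the counting is not given in the sources used here.

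*Gfra2* (ENSMUSG00000022103), the co-receptor of neurturin, on chromosome 14 from 70890120 to 70979838, was read 372 and 469 times in the Control libraries, against 415 times in the first *Eya1*cKO library and 263 times in the second. After scaling, both *Eya1*cKO libraries (18.3 and 15.0 CPM) were above both Control libraries (10.6 and 12.5 CPM). This difference, 0.54 on the log2 scale with a standard error of 0.33 and a 95% interval from -0.24 to 1.31, missed the threshold (adjusted *P* = 0.324 in edgeR). Its interval did not overlap that of *Gfra1*; the difference between the genes was not tested.

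For *Gfra3* and *Gfra4* the genotypes overlapped, and the 2 *Eya1*cKO libraries were far apart. *Gfra3* (ENSMUSG00000024366), the co-receptor of artemin, on chromosome 18 from 34689898 to 34720387, was read 86 and 143 times in the Control libraries, against 186 times in *Eya1*cKO 1 and 51 times in *Eya1*cKO 2. *Eya1*cKO 1 was above both Control libraries at 8.22 CPM and *Eya1*cKO 2 between them at 2.90 CPM, and the log2 fold change was 0.90 (95% interval -0.69 to 2.48, adjusted *P* = 0.419 in edgeR). Without *Eya1*cKO 1 it was -0.13, and without *Eya1*cKO 2 it was 1.36 (adjusted *P* = 0.0159 in edgeR).

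*Gfra4* (ENSMUSG00000027316), the co-receptor of persephin, on chromosome 2 from 131039632 to 131043088, gave 214 and 217 reads in the Control libraries, whereas *Eya1*cKO 1 had 22 and *Eya1*cKO 2 had 190. The Control libraries were nearly equal at 6.12 and 5.78 CPM, whereas *Eya1*cKO 1 was lower at 0.972 CPM and *Eya1*cKO 2 higher at 10.8 CPM. Over all libraries its log2 fold change was -0.17 (95% interval -2.07 to 1.73, adjusted *P* = 0.916 in edgeR). It was 0.85 without *Eya1*cKO 1 and -2.62 without *Eya1*cKO 2, and the second of these passed the threshold (adjusted *P* = 0.00373 in edgeR). A microRNA gene on the same strand covers 3.7% of the exonic length of *Gfra4*.

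The gaps between the *Eya1*cKO libraries were largest for members of low level. On the log2 scale they were 5.85 for *Artn*, 5.41 for *Pspn* and 3.45 for *Gfra4*, against 0.65, 0.32 and 0.081 between the Control libraries. The gap between the *Eya1*cKO libraries was 0.64 for *Gdnf*, 0.35 for *Gfra1* and 0.24 for *Ret*. Over the 2873 genes with a mean of 1 to 3 CPM, the range that holds *Artn*, the median gap was 2.1 between the *Eya1*cKO libraries and 0.604 between the Control libraries. The 90th percentile of the gap between the *Eya1*cKO libraries was 6.74 in that range, above the gap of *Artn*. For the 2944 genes under 1 CPM, the range of *Pspn*, the median was 2.32 and the 90th percentile 5.61, a little above the gap of *Pspn*. For the 2824 genes from 3 to 10 CPM, the range of *Gfra4*, they were 0.992 and 2.92, so that the gap of *Gfra4* was larger than in 90% of the genes at its level.

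*Ret* (ENSMUSG00000030110), on chromosome 6 from 118151745 to 118197718, fell together with its main ligand and co-receptor, to 26.7% of the Control level. The Control libraries held 750 and 856 reads of *Ret*, and the *Eya1*cKO libraries 145 and 95. Both genotypes were even within themselves, with 21.4 and 22.8 CPM in the Control libraries and 6.40 and 5.41 CPM in the *Eya1*cKO libraries, and they did not overlap. The log2 fold change was -1.89 (standard error 0.36, 95% interval -2.75 to -1.04, adjusted *P* = 0.0233 in edgeR). It lay between -2.05 and -1.81 with each library left out, and the adjusted *P* in edgeR was 0.475 without Control 1 and 0.544 without Control 2. With a block for the replicate number, the fall of *Ret* missed the threshold (adjusted *P* = 0.0809 in edgeR). Fewer cells that express a gene and less of its RNA per cell cannot be told apart in such libraries.

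Of the 9 members, all of which passed edgeR's filter on low counts, 3 had an adjusted *P* under 0.05, and all 3 were lower in *Eya1*cKO. The study compared the same libraries, and *Gdnf*, *Gfra1* and *Ret* are all in its own lists of changed genes, so none of these calls is independent evidence. Of all 19041 genes tested, 4.41% were lower by the same rule and 9.56% passed it in either direction. No member passed the threshold as higher, where 5.15% of all genes did, with 0 at an unadjusted *P* under 0.05 in edgeR and 0 with DESeq2's Wald test. The genotypes did not overlap for 4 members (55.3% of all genes tested), with *Eya1*cKO below Control for 3 (30.0% of all) and above it for 1 (25.3% of all). The median log2 fold change was -0.68 over the members and 0.016 over all genes tested.

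**Figure D2:**
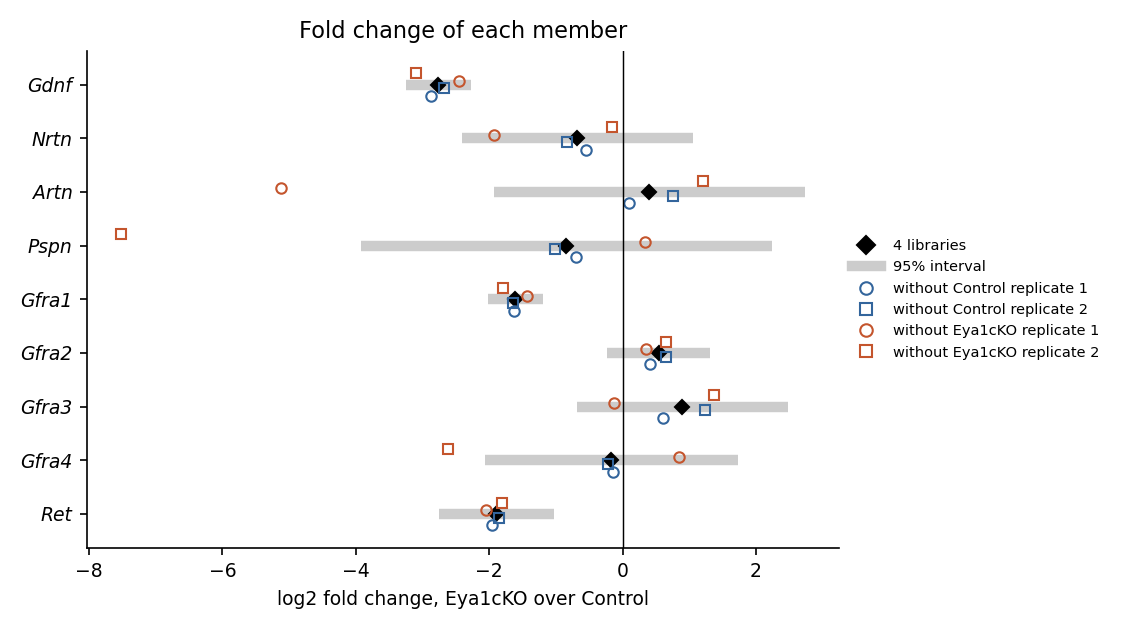
Log2 fold change of *Eya1*cKO over Control for each member, with all 4 libraries (diamond), its 95% interval (grey bar) and each library left out in turn (open symbols). The values of *Gdnf*, *Nrtn*, *Gfra1*, *Gfra2* and *Ret* keep their side of 0 whichever library is left out, whereas those of *Artn*, *Pspn*, *Gfra3* and *Gfra4* change sides with the *Eya1*cKO library left out.

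Levels were compared between genes per kilobase of exonic length. In the Control cells the order in CPM per kb was *Gdnf* (35.2), *Gfra1* (15.99), *Nrtn* (3.40), *Ret* (3.27), *Gfra2* (3.27), *Gfra4* (2.75), *Gfra3* (1.57), *Pspn* (1.52) and *Artn* (0.871), as means of 2 libraries. *Gdnf* and *Gfra1* stood apart from each other and from the rest, while the libraries of *Nrtn*, *Ret* and *Gfra2* overlapped, as did those of *Gfra3* and *Pspn*. In *Eya1*cKO the means of *Gdnf* (5.33), *Gfra1* (5.30) and *Gfra2* (4.70) in CPM per kb were close, and their libraries overlapped.

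Summed over the 4 ligand genes, the length-scaled level was 39.2 and 42.9 CPM per kb in the Control libraries against 9.28 and 9.32 in the *Eya1*cKO libraries. The Control sums were mostly *Gdnf*, which took 84.4% and 87.3% of them. In *Eya1*cKO its share was 45.0% and 69.6%, and the rest was *Nrtn* and *Artn* in the first library but *Pspn* and *Nrtn* in the second.

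The 4 co-receptor genes summed to 23.2 and 24.0 CPM per kb in the Control libraries and to 14.4 and 16.6 in the *Eya1*cKO libraries. *Gfra1* made up 69.5% and 66.2% of the Control sums and 32.4% and 35.8% of the *Eya1*cKO sums. *Gfra2* went from 13.0% and 14.7% to 36.0% and 25.4%. The share of *Gfra3* went from 5.31% and 7.96% to 28.6% and 8.74%, and that of *Gfra4* from 12.2% and 11.1% to 3.12% and 30.05%. *Gfra1* was 5.36 and 4.49 times as high as *Gfra2* per length in Control 1 and 2, and 0.90 and 1.41 times as high in *Eya1*cKO 1 and 2.

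Relative to *Ret*, *Gfra1* was 5.08 and 4.71 times as high per length in the Control libraries and 4.92 and 7.44 times in the *Eya1*cKO libraries, so that the libraries of the genotypes overlapped in this ratio. The ratio of *Gfra2* to *Ret* was 0.95 and 1.05 in the Control libraries and 5.47 and 5.29 in the *Eya1*cKO libraries. The ratio of *Gdnf* to *Gfra1* was 2.05 and 2.36 in the Control libraries and 0.89 and 1.09 in the *Eya1*cKO libraries. These ratios are given as descriptions and were not tested.

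**Figure D3:**
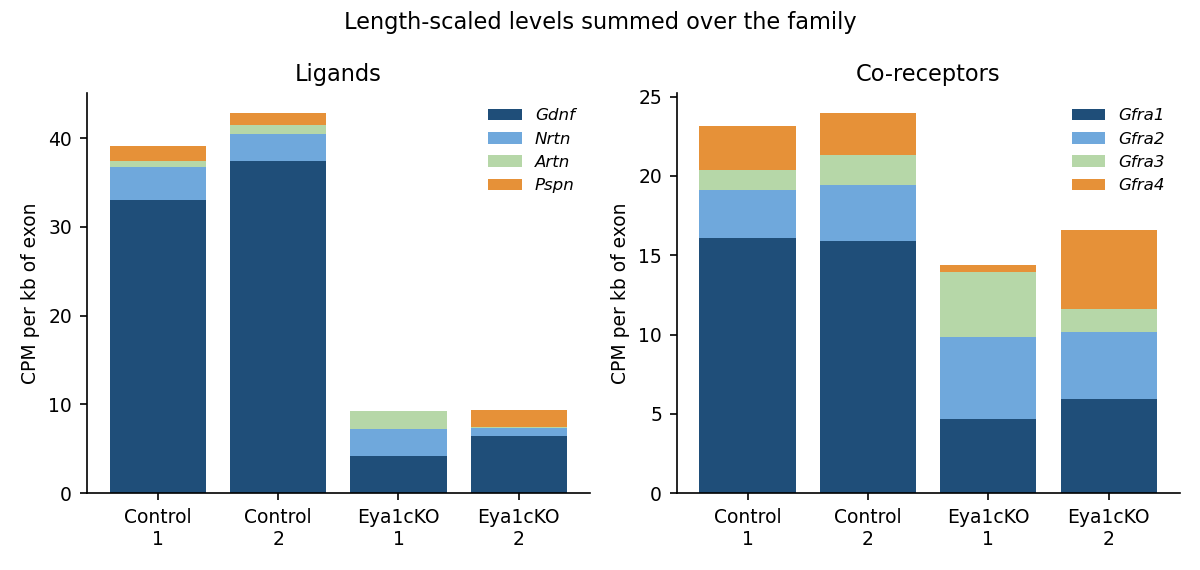
Length-scaled levels in CPM per kb of exon, stacked over the 4 ligand genes (left) and the 4 co-receptor genes (right), with 1 bar per library. *Gdnf* and *Gfra1* make up most of the Control bars, and the *Eya1*cKO bars are shorter, with a larger combined share of the other members than in either Control bar.

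The genes whose log2 CPM over the 4 libraries, each centred on its own mean, were nearest to a member by Euclidean distance were looked up among 16670 genes outside the family. Nearest to *Gdnf* were *Slco5a1* (distance 0.15), *Gm28438* (0.28) and *Tmem267* (0.33). Nearest to *Gfra1* were *Mad2l2* (0.10), *Etv5* (0.11) and *Rps6ka6* (0.14), and nearest to *Ret* were *Xylt1* (0.087), *Dock5* (0.17) and *Pla2g4b* (0.17). *Etv5*, a transcription factor gene downstream of Ret, is also among the pathway genes described next. With 4 libraries in 2 genotypes, genes with a like fold change between the genotypes are near each other by this measure.

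Of 9 genes known to respond to Ret signalling in the ureteric bud, 3 fell in *Eya1*cKO (33.3%, against 4.41% of all genes tested), and none was called higher in edgeR (0 at an unadjusted *P* under 0.05, and 0 with DESeq2). The list's median log2 fold change was -0.93, and both *Eya1*cKO libraries were below both Control libraries for 7 of the 9 genes, as they were for 30.0% of all genes tested. The study's text names *Etv4* and *Etv5* from these libraries, so their calls are not independent evidence. The cells were sorted by the *Eya1* lineage and not as ureteric bud cells, and Ret signalling was not measured. This list and the pathway lists below were chosen with earlier results of these data known. Their shares beside those of all genes are therefore descriptions and not tests.

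*Etv4*, an ETS factor gene, went from 5015 and 5505 reads in the Control libraries to 344 and 285 in *Eya1*cKO, and fell by 3.21 on the log2 scale (standard error 0.16, adjusted *P* = 0.000202 in edgeR). Its relative *Etv5* went from 2556 and 2602 reads to 437 and 430, with a log2 fold change of -1.72 (adjusted *P* = 0.00399 in edgeR). Both ETS genes are also known as targets of FGF signalling in nephron progenitors. *Spry1*, a feedback inhibitor of receptor tyrosine kinases, had a log2 fold change of -0.93 (adjusted *P* = 0.00484 in edgeR), and an antisense gene covers 24.4% of its exonic length. Without Control 1 or Control 2, *Etv4* still passed the threshold (adjusted *P* = 0.0379 and 0.0444 in edgeR), whereas *Etv5* (0.232 and 0.23) and *Spry1* (0.27 and 0.257) did not.

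The other 6 genes did not pass the threshold, and antisense genes cover 8.8% of the exonic length of *Wnt11* and 6.26% of that of *Myb*. *Wnt11*, a Wnt ligand of the ureteric bud tips, was read 823 and 715 times in the Control libraries, against 239 times in *Eya1*cKO 1 and 89 times in *Eya1*cKO 2 (log2 fold change -1.38), with an adjusted *P* of 0.0796 in edgeR against 0.0282 with DESeq2. *Met*, the receptor of hepatocyte growth factor, had 50.3 ± 5.74 CPM in Control and 28.9 ± 6.00 CPM in *Eya1*cKO (log2 fold change -0.78), and its adjusted *P* was 0.0745 in edgeR against 0.0295 with DESeq2. For *Dusp6*, a phosphatase that dampens ERK signalling, the log2 fold change was -0.39 (adjusted *P* = 0.0818 in edgeR). *Wnt11*, *Met* and *Dusp6* passed in the fits without either one of the *Eya1*cKO libraries, with adjusted *P* values from 0.000153 to 0.0107 in edgeR, in which the spread comes from the Control libraries alone. *Cxcr4*, a chemokine receptor gene, was read 456 and 535 times in the Control libraries but 24 times in *Eya1*cKO 1 and 166 times in *Eya1*cKO 2. Its log2 fold change of -1.53 (adjusted *P* = 0.176 in edgeR) was -3.70 without *Eya1*cKO 2 (adjusted *P* = 3.6e-05 in edgeR) and -0.54 without *Eya1*cKO 1. *Myb*, a transcription factor gene, and *Mmp14*, a membrane-bound matrix protease gene, had log2 fold changes of -0.22 and 0.085; that of *Mmp14* passed as 0.16 without *Eya1*cKO 2 (adjusted *P* = 0.0336 in edgeR).

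Of 21 genes known to act upstream of *Gdnf* or *Ret*, 8 fell (38.1%, against 4.41% of all genes tested). As this list was chosen with earlier results of these data known, its share is a description and not a test. *Eya1*, the gene deleted by design, is 1 of the 8, and without it 7 of 20 fell (35%). None (0) was called higher in edgeR, as 5.15% of all genes were, while 2 were higher at an unadjusted *P* under 0.05 and 1 with DESeq2. The median log2 fold change of the 21 was -0.60. The largest falls were those of *Six2* (-4.44), a homeobox gene that keeps nephron progenitors undifferentiated, *Eya1* itself, *Osr1* (-2.40), a zinc finger gene of the early kidney field, and *Pax2* (-2.20), a paired-box gene of mesenchyme and bud, and their adjusted *P* in edgeR was 0.00043, 0.000195, 0.00748 and 7.27e-05, in this order. The study's text names 7 genes of this list from these libraries, and all 7 are among the 8, so those calls are not independent evidence. The 1 other is *Robo2*, a Slit receptor gene that limits where *Gdnf* is expressed, named here after its value was seen, with a log2 fold change of -0.52 (adjusted *P* = 0.0121 in edgeR). Without Control 1 or Control 2, 4 and 3 genes of the list passed.

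Of the related receptors and of genes that act beside GFRα1, 6 of 7 could be tested, 2 fell and 1 rose, where 4.41% of all genes tested fell and 5.15% rose. *Gas1*, a GFRα-like membrane protein gene, fell by 0.82 (adjusted *P* = 0.00354 in edgeR), and *Itga8*, the α8 integrin of the metanephric mesenchyme, by 0.83 (adjusted *P* = 0.0107 in edgeR). Antisense genes cover 19.9% of the exonic length of *Gas1* and 5.05% of that of *Itga8*. *Npnt*, which encodes nephronectin, the matrix ligand of that integrin, rose by 1.26 on the log2 scale (adjusted *P* = 0.00278 in edgeR). Of these genes none passed without Control 1 or without Control 2. *Ncam1*, another receptor reported for GDNF, had 348 ± 9.49 and 353 ± 14.5 CPM and a log2 fold change of 0.020 (adjusted *P* = 0.893 in edgeR), with 4.81% of its exonic length covered by an antisense gene. *Gfral*, the distant family member that binds GDF15, had 0 reads in every library. Its ligand gene *Gdf15* gave 26 and 5 reads in the Control libraries, against 0 and 28 in *Eya1*cKO, and the genotypes overlapped.

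Of 20 genes for adaptors and effectors that act below Ret, 1 fell and 2 rose, and the list's median log2 fold change was -0.0014. *Grb10*, a growth factor receptor adaptor gene, fell by 0.30 (adjusted *P* = 0.0142 in edgeR), *Shc1*, an adaptor gene, rose by 0.49 (adjusted *P* = 0.0374 in edgeR) and *Pik3r1*, a regulatory subunit gene of PI3-kinase, rose by 0.61 (adjusted *P* = 0.0332 in edgeR). These 3 of 20 are 15% of the list, where 9.56% of all genes tested passed in either direction. None of the 3 passed without Control 1 or without Control 2, and 0 genes of the list were called higher without the low-count filter, with edgeR's legacy method or with the replicate block.

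**Figure D4:**
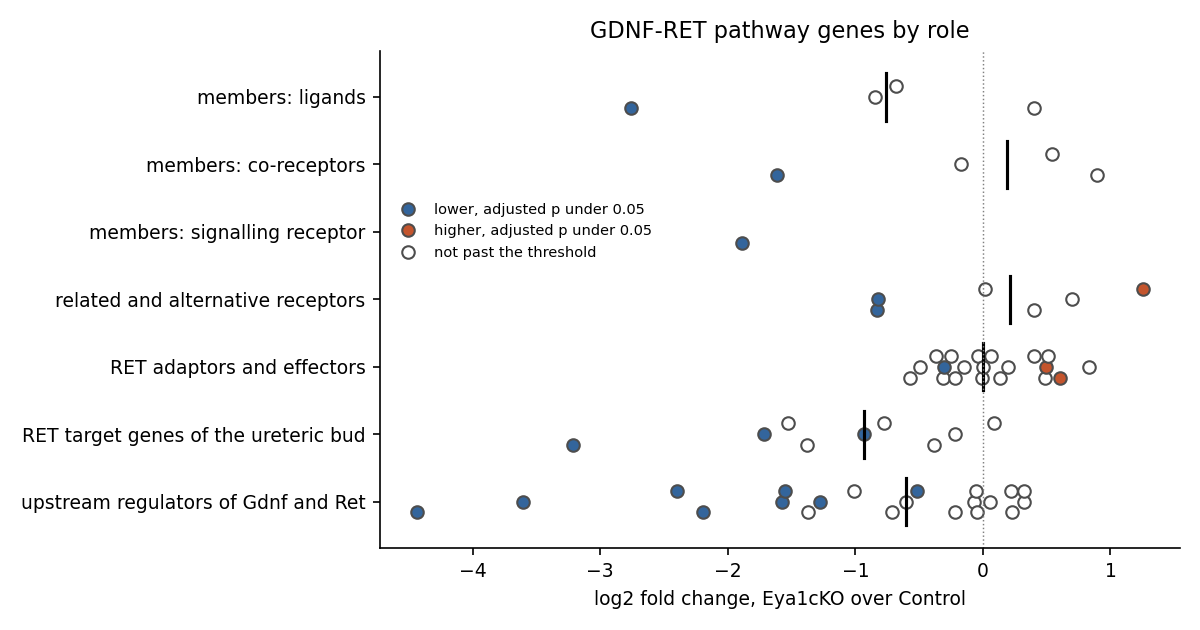
Log2 fold change of *Eya1*cKO over Control for the members and for the pathway genes by role, with 1 point per gene tested, filled where the adjusted *P* was under 0.05, and a vertical line at the median of each list with more than 1 gene. The largest falls are among the upstream regulators and the Ret target genes, and the adaptors and effectors lie on both sides of 0.

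The sorted cells held RNA of several cell types, and markers of those types differed between the genotypes beside the family. The 8 nephron progenitor markers, 3 of which are shared with the lists above and 6 of which the study's text names from these libraries, were all lower in edgeR, *Eya1* itself included, and their summed level was 1017 to 1036 CPM in the Control libraries and 178 to 191 CPM in the *Eya1*cKO libraries. The 11 ureteric bud markers, the cells in which Ret is best known in the kidney, summed to 413.7 to 414 CPM in the Control libraries and 363 to 378 CPM in the *Eya1*cKO libraries, with 1 of 11 lower (*Calb1*, adjusted *P* = 0.00336 in edgeR, log2 fold change -2.19) and 1 higher (*Cdh16*, adjusted *P* = 0.0231 in edgeR, log2 fold change 0.69). *Wnt9b*, another bud marker, had 240 and 364 reads in the Control libraries and 56 and 52 in the *Eya1*cKO libraries (log2 fold change -1.63, adjusted *P* = 0.129 in edgeR).

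The 10 sympathoadrenal markers summed to 33.9 to 40.9 CPM in the Control libraries and 572 to 607 CPM in the *Eya1*cKO libraries, with 8 of 10 higher and 1 lower in edgeR. Ret and the GFRα co-receptors are also known in that lineage. The 6 adrenal cortex markers went from 10.6 to 15.2 CPM to 629 to 644 CPM, with all 5 of those tested higher, and the 6 podocyte markers from 847 to 873 CPM to 2563 to 2643 CPM, with 5 of 6 higher and all 5 named in the study's text from these libraries. The 5 early nephron markers had 4 lower (769 to 772 CPM against 400.5 to 479 CPM), the 6 renal stroma markers 3 higher and 1 lower (735 to 746 CPM against 1049 to 1068 CPM) and the 6 endothelial markers all 6 higher (535 to 547 CPM against 916 to 983 CPM).

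The 7 Schwann and glial markers summed to 27.5 to 29.0 CPM in the Control libraries, to 40.1 CPM in *Eya1*cKO 1 and to 29.9 CPM in *Eya1*cKO 2, with 1 of the 5 tested higher. The gap between the *Eya1*cKO libraries was largest for *Fabp7* (7.99 and 1.31 CPM, not called), while *Sox10*, the 1 gene called, had 3.67 and 4.27 CPM. The 6 blood markers summed to 61.3 to 63.7 and 70.6 to 79.8 CPM, with 0 of the 3 tested called in edgeR (1 higher at an unadjusted *P* under 0.05), and the haemoglobin marker *Hba-a1* had no read in any library. The part of these cell types in the values of the family was not tested.

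**Figure D5:**
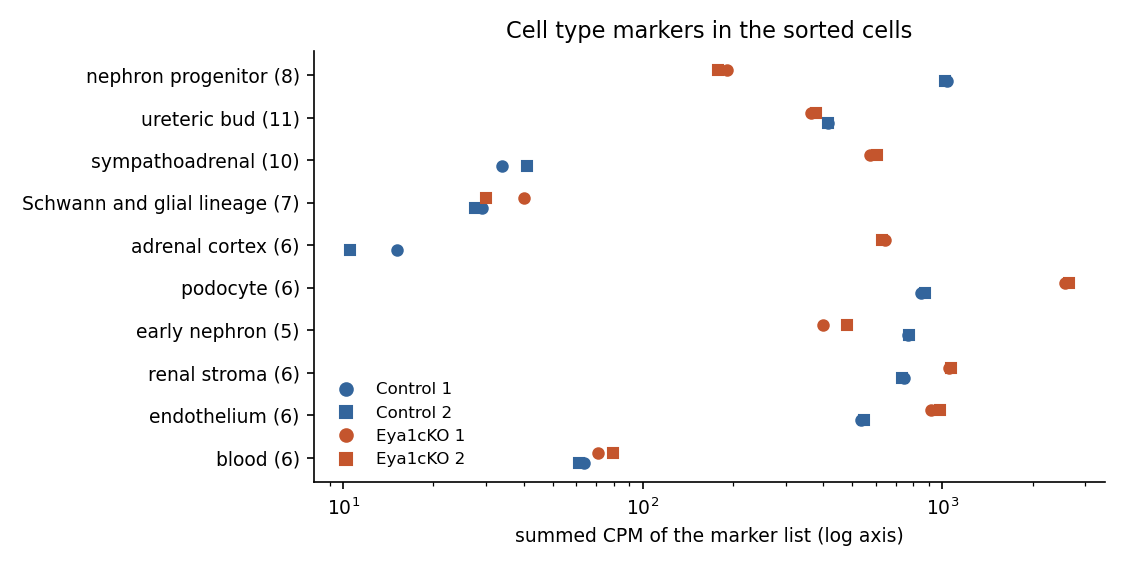
Summed CPM of each marker list in each library on a log axis, with the number of genes in parentheses. The nephron progenitor and early nephron lists are lower in both *Eya1*cKO libraries, the adrenal cortex and sympathoadrenal lists are far higher in them, and the ureteric bud list differs least among the lists that were lower.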

How the data were processed

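RNA-seq was carried out on FACS-sorted tdTomato+ kidney cells in 2 Control and 2 *Eya1*cKO libraries, grouped by their labels. Per the paper's methods, strand-specific random-primed reads were mapped by the authors to mm10 with HISAT2 and counted with HTSeq-count on Ensembl v90; the strand setting is not given in the sources used here. The authors deposited raw counts per gene, without normalization. Reads counted on no gene, ambiguous, not aligned or not uniquely aligned (together 31.8% to 46.1% of those recorded) were left out. A symbol was given for 52403 of 52636 gene identifiers. Exon models and gene coordinates came from GENCODE M21 on GRCm38, the same build but a later release, and promoters from RefSeq on GRCm38.p6. Protein sequences were not used here.

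Counts were tested in R 4.3.3 with edgeR 4.0.16: filterByExpr with a minimum count of 10, TMM scaling, glmQLFit (legacy = FALSE) and glmQLFTest for genotype. *P* values were adjusted by Benjamini and Hochberg's method across all 19041 genes, with a threshold of 0.05. The standard error was obtained by dividing the size of the log2 fold change by the root of F, and intervals are at 95%. The procedure was tested on simulated counts with 200 changed genes. Alternatives were DESeq2 1.42.0 (size factors, Wald test), library totals, other filters, legacy and robust quasi-likelihood, a block for the replicate number, and the leaving out of each library in turn. With 2 libraries per group no exact permutation test can reach 0.05, and no library could be tested as an outlier.

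Genes said to be named in the study's text were taken from its main text, not its supplementary lists. The members and gene lists were chosen with earlier results of these data known, and the motifs after the promoters had been seen. Genes named were all members, all Ret target genes, up to 4 called genes per direction of each other pathway list, *Gfral*, *Gdf15* and *Eya1*, and the 3 genes nearest to *Gdnf*, *Gfra1* and *Ret*; *Ncam1*, *Robo2* and the marker genes with values were added after their values were seen.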

Additional observations from a re-analysis of the deposited data

How the results depend on the processing

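The falls of *Gdnf* and *Gfra1* passed the threshold under all 8 alternatives run on all 4 libraries, and that of *Ret* under 7 of them, with an adjusted *P* of 0.0809 in edgeR under the replicate block. The labels number the libraries of both genotypes 1 and 2 but give no pairing beyond the number, so the libraries were not treated as pairs. The deviations of same-numbered libraries from their genotype means were uncorrelated (r = 0.0062 over 19041 genes). With 2 libraries per genotype, this value cannot decide whether same-numbered libraries were prepared together. Over all genes, 839 were lower and 981 higher, against 507 and 548 without the low-count filter, 515 and 581 with the legacy method, 263 and 358 with the replicate block and 1298 and 1815 with DESeq2's Wald test. The median log2 fold change of all genes tested was 0.016, against -0.21 without the low-count filter and -0.18 with DESeq2. With each library left out these counts ran from 7 to 3482 lower and from 15 to 4443 higher, since the spread then comes mainly from the genotype that keeps 2 libraries. The members called lower ran from 0 to 4 and those higher from 0 to 1 in the same fits.

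Among pathway genes, the replicate block left 1 of the 2 lower related receptors, and the higher adaptors went from 2 to 0 without the low-count filter, with the legacy method and with the replicate block. DESeq2 called 5 of the Ret target genes lower in place of 3, and 1 upstream regulator was higher with library totals alone, with at least 10 counts in every library and with DESeq2. With each library left out, related receptors ran from 0 to 2 lower and 0 to 2 higher, adaptors from 0 to 5 lower and 0 to 6 higher, Ret target genes from 1 to 7 lower and 0 to 1 higher, and upstream regulators from 3 to 11 lower and 0 to 2 higher. Log2 fold changes that changed sign with a library left out ran from -5.12 to 1.20 for *Artn*, -7.52 to 0.33 for *Pspn*, -0.13 to 1.36 for *Gfra3*, -2.62 to 0.85 for *Gfra4*, -0.50 to 0.056 for *Myb* and -0.033 to 0.16 for *Mmp14*. *Gfra4* was also at 0.0014 with DESeq2. The causes of these changes were not tested.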
